A study of Mus musculus with 8 samples.

Results

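CD8 T cells of the mouse pancreas that carried the chemokine transcript Ccl5 without transcripts of tissue residence were taken from 8 droplet single-cell RNA-seq libraries by a gate on raw UMIs, the counted molecules. A cell had to show at least 500 genes, under 10% mitochondrial UMIs, at least 2 UMIs over 6 T cell receptor complex genes, 1 or more UMIs from Cd8a and Cd8b1 together, and Cd4 at 0. It also had to show at least 1 Ccl5 UMI, no UMI of the residence genes Itga1, Itgae and Cxcr6, and fewer than 2 of the checkpoint genes Pdcd1, Lag3, Tigit, Havcr2 and Tox. The gate held 2691 cells, which were 10.9% of 24690 CD8-gated T cells and 3.48% of 77359 T cells, and they are called member cells here. The cells were thus chosen by their measured counts of these genes, whose levels are given as descriptions.

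The study sorted CD45+ CD3+ TCRβ+ pancreatic cells of NOD mice, which become diabetic through autoimmunity, labelled as females of 3 to 4 months that had become diabetic spontaneously (3 to 5 months in the treatment protocol). One library came from mice with active disease (blood glucose above 600 mg/dl) and another from mice at onset (250 mg/dl), both harvested on day 1. The other 6 came from newly diabetic mice (200 to 300 mg/dl), with 1 vehicle and 1 PPCA library for each of days 2, 3 and 4. PPCA was a daily pair of drugs, an MDM2 blocker that frees p53 (nutlin-3, 50 mg/kg) and a WEE1 kinase blocker (MK-1775, 25 mg/kg), and the vehicle was 30% ethanol, 5% Tween 20 and 65% PEG300. The labels give neither the number of mice behind a library nor which day of dosing each library day stands for, so p-values measure the spread between libraries, which may be technical.

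CCL5 is a chemokine that memory and effector CD8 T cells keep as ready transcript and release quickly after antigen contact. Memory CD8 T cells that recirculate are known for the chemokine receptor Ccr7, which brings them into lymph nodes, whereas resident memory cells hold on to tissue through the integrins encoded by Itga1 and Itgae and through CXCR6. In the NOD pancreas, CD8 T cells take part in killing the insulin-producing beta cells.

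The libraries held 36934580 to 67603740 UMIs each, and the member cells of a library numbered 215 to 863 with a median of 4845 to 8043 UMIs per cell. Computed doublets made up 9.59% of member cells and 9.66% of CD8-gated cells, and the 28 pairs of libraries shared 14 to 41 cell barcodes each, 1 of them among member cells. The labels call all mice female, but 4 libraries held the female transcript Xist at 418 to 622 CPM (UMIs per 1000000 UMIs of the gate or library), and the other 4 held it at 0.301 to 0.745 CPM with 188 to 276 CPM from Y-linked genes. Those other 4 were the day 2 and day 3 vehicle and the day 3 and day 4 PPCA libraries. B cell markers summed to 11.4 to 42.5 CPM in member cells (4 of 4 detected), NK cell markers to 1.52 to 18.3 CPM (5 of 5) and red cell markers to at most 12.7 CPM (3 of 4, Hba-a2 at 0). Myeloid markers summed to 1.83 to 89.5 CPM (6 of 6 detected), and pancreatic markers to 16.4 to 195 CPM (10 of 12, with the islet genes Gcg and Iapp at 0).

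Many member cells entered the gate on a single Ccl5 molecule. Exactly 1 Ccl5 UMI was seen in 1119 of them (41.6%), with 31.5% to 57.0% per library, while 458 (17.0%) had 2 to 9, 643 (23.9%) had 10 to 49 and 471 (17.5%) had 50 or more. The highest class ranged from 6.79% of member cells in the active library to 23.99% in the PPCA day 4 library. CD4-gated cells selected on resting-cell transcripts, Ccr7 among them, a type that should lack Ccl5, gave the background of stray RNA. Exactly 1 Ccl5 UMI was found in 9.57% of 14208 such cells (3.91% to 16.6% per library) and in 8.12% of the 13783 CD8 cells that were members or differed from them only in having no Ccl5 (4.70% to 14.3%). At 2 or more UMIs the shares were 1.31% in the CD4 cells (0.559% to 2.39%) and 11.4% in the CD8 cells (6.74% to 17.7%). Median depths were close, at 5314 and 5397 UMIs. After each cell was thinned to 2000 UMIs, the shares with exactly 1 UMI were 4.22% and 4.49% and those with 2 or more were 0.437% and 8.91%. Member cells with 1 Ccl5 UMI were therefore at the background level in the unthinned counts, and those with 2 or more were not. These intervals and shares carry counting error only.

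**Figure D1:**
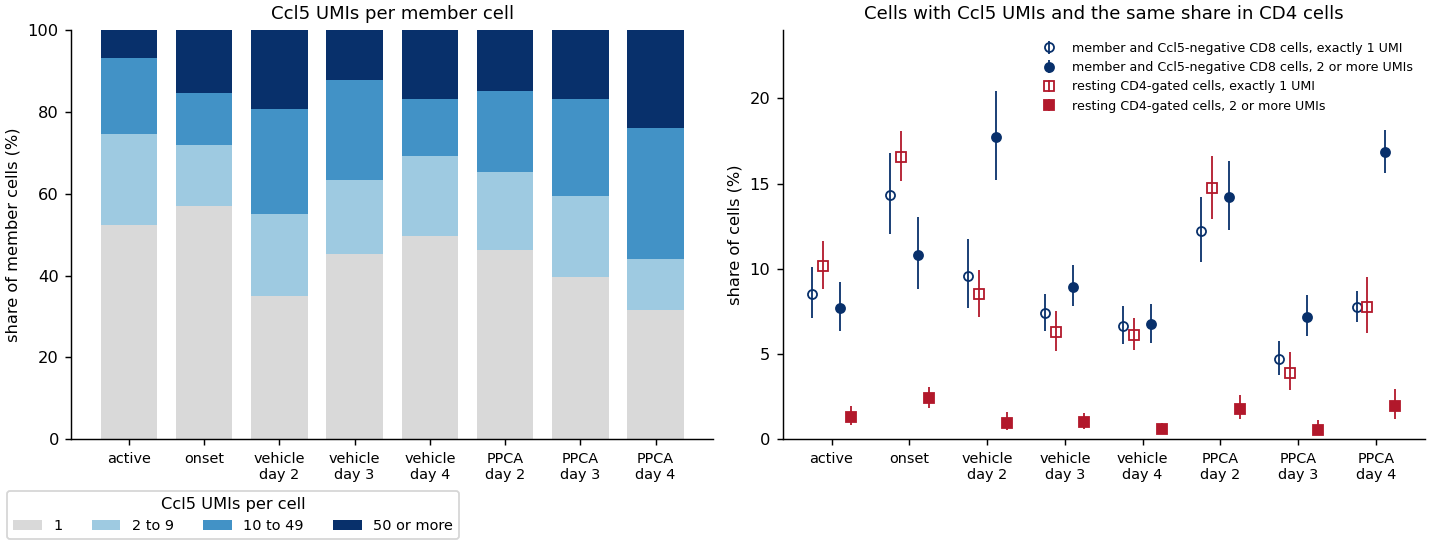
Left, share of member cells (percent) with 1, 2 to 9, 10 to 49 and 50 or more Ccl5 UMIs in each of the 8 libraries. Right, share of cells (percent, with exact 95% binomial intervals) that held exactly 1 (open) or at least 2 (filled) Ccl5 UMIs among member plus Ccl5-negative CD8 cells (blue) and among the resting CD4-gated cells (red). The open blue and red points lie close together, and in every library the filled blue points lie far above the filled red ones.

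The label of non-resident memory was checked against its 3 markers, Ccl5 (ENSMUSG00000035042), Gzmk (ENSMUSG00000042385), which encodes a granzyme of memory CD8 cells, and Klrk1 (ENSMUSG00000030149), which encodes the activating receptor NKG2D. Gzmk was detected in 459 member cells (17.1%, 8.14% to 25.3% per library) and Klrk1 in 357 (13.3%, 7.44% to 20.4%), against 0.380% and 0.373% in the CD4 reference cells. Both were detected in 202 cells and neither in 2077 (77.2%). Gzmk or Klrk1 was therefore detected in a minority of the cells that the gate took in, although 0 UMIs do not show that a cell lacked the transcript. The gate as a whole is named below by its rule.

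Levels of the markers differed between libraries. Ccl5 in the member cells stood at 1521 CPM in active, 3356 in onset, 3937, 2685 and 3615 in vehicle on days 2, 3 and 4, and 3686, 3481 and 6195 in PPCA on the same days. Gzmk stood at 23.3 CPM in active, 48.0 in onset, 56.0, 30.8 and 48.8 in vehicle and 75.1, 44.8 and 93.7 in PPCA. Klrk1 stood at 25.4 CPM in active, 36.6 in onset, 74.5, 41.6 and 25.8 in vehicle and 54.4, 38.0 and 94.2 in PPCA. The PPCA day 4 library was highest and the active library lowest for each of these 3 genes, and vehicle and PPCA ranges overlapped for each.

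The authors' deposited table of cluster markers has 7 clusters, of which 2 are CD8. In the authors' deposited table, Ccl5 stood under the CD8 TRM TEM cluster with a log2 fold change of 6.77 and detection in a fraction of 0.989 of its cells. The same cluster of the authors' deposited table held Gzmk (log2 fold change 1.95, fraction 0.533) and Klrk1 (2.11, 0.451). It also held the residence genes that the member gate required at 0, Cxcr6 (2.87, 0.714), Itga1 (1.67, 0.385) and Itgae (0.837, 0.201). Under the CD8 TCM cluster of the authors' deposited table stood Ccr9 (1.12, fraction 0.365) and Itgae (0.376, 0.18). The table gives no cell barcodes, so how the member cells split between these clusters was not tested.

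Within the gate, genes followed the amount of Ccl5, although each class was cut on Ccl5 itself and the order below is a description. Gzmk had a median over libraries of 0 CPM in member cells with 1 Ccl5 UMI, 5.32 CPM with 2 to 9, 47.6 with 10 to 49 and 248 with 50 or more. It was detected in 0.179%, 3.28%, 21.3% and 64.8% of the cells of these classes. Klrk1 rose over the same classes from 1.96 to 5.88, 47.8 and 234 CPM, and both genes were higher in the highest class than in the class of 2 to 9 UMIs in 8 of 8 libraries. Hopx, a homeodomain cofactor of effector and memory T cells, had medians of 4.29, 32.8, 112 and 214 CPM. S100a6, a calcium-binding protein gene typical of memory T cells, had medians of 13.8, 51.9, 359 and 808 CPM. In cells with no Ccl5 that otherwise met the gate, Hopx stood at 2.44 and S100a6 at 12.4 CPM. Cells with 1 UMI were above those with 0 in 6 of 8 libraries for Hopx, 4 for Klrk1, and 2 each for S100a6 and Gzmk. For the memory transcription factor gene Eomes they were above in 8 of 8, with detection in 15.8% of cells with 1 UMI and 10.1% of those with 0.

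The order was not the same for every gene. Gzmm, which encodes granzyme M, peaked at 10 to 49 Ccl5 UMIs (177 CPM) and fell back to 94.1 CPM at 50 or more, and Klra7, an inhibitory NK-type receptor gene of the Ly49 family, went from 24.6 CPM at 2 to 9 to 73.4 and then 15.01 CPM. Zeb2, a transcription factor of effector differentiation, was 0 CPM at 2 to 9, 6.39 at 10 to 49 and 43.3 CPM at 50 or more. Lef1, a transcription factor of naive T cells, declined from 677 to 439, 297 and 195 CPM, and Igfbp4, a gene of resting naive T cells, from 212 to 77.3, 24.3 and 23.996 CPM. Tcf7, which marks cells with self-renewing potential, showed no such order, at 356, 375, 364 and 361 CPM. Il7r, the receptor subunit for the survival cytokine IL-7, went from 405 to 507, 629 and 789 CPM.

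**Figure D2:**
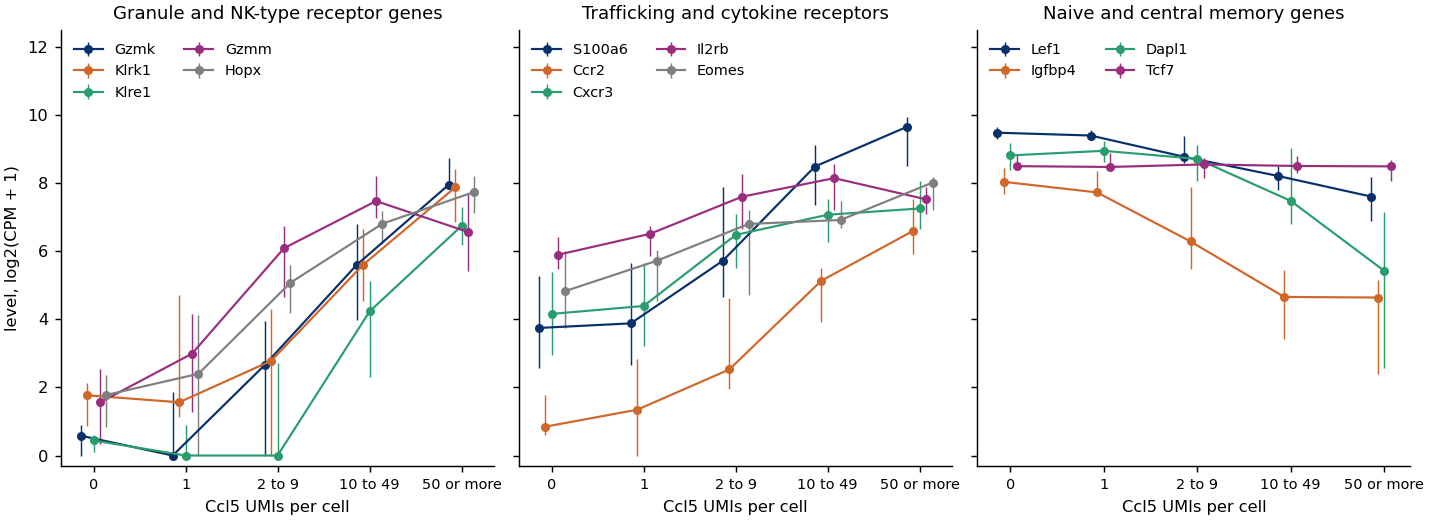
Level, as log2(CPM + 1), of genes in CD8 cells by the number of Ccl5 UMIs per cell, where the class 0 holds the Ccl5-negative neighbours. Points are medians over the 8 libraries and bars run from the lowest to the highest library. Gzmk, Klrk1, Hopx and S100a6 climb from the class of 2 to 9 onward, Gzmm peaks at 10 to 49, Lef1 and Igfbp4 decline, and Tcf7 stays flat.

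The values just inside and outside the gate show where its edges lie. Cells with 1 Ccl5 UMI held 0.594 CPM of Gzmk, 3.71 of Klrk1 and 681 of Lef1, pooled over libraries, and cells with 0 held 0.464, 1.87 and 702 CPM. Member cells with 1 checkpoint gene held 97.8 CPM of Gzmk and 436 of Lef1, and cells with 2 of them, just outside, held 190 and 184 CPM. Cells with 1 residence UMI, outside the gate, held 74.8 CPM of Gzmk and 473 of Lef1, against 58.2 and 458 CPM in the member cells.

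The first comparison asked how member cells differed from 11092 CD8 cells that met every other condition and had no Ccl5. Each library gave 1 sum of UMIs per gate, the library was a block, and the genes of the gate were left out. In edgeR's quasi-likelihood test with Benjamini-Hochberg adjustment at 0.05, 915 of 10476 genes were higher in member cells (8.73%) and 629 were lower (6%), 1544 in all (14.7%). A gate on a transcript sorts cells by it, so genes carried by the same cells differ by construction, and the test measures only how repeatable each difference was over the 8 libraries. A gene entered the test when 2 libraries of either gate reached 2.61 CPM. Of the 915 higher genes, 182 did not reach that level in 2 Ccl5-negative libraries, and of the 629 lower genes 17 did not reach it in 2 libraries of member cells. Such genes entered through the gate where they were high and could only differ in that direction.

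Granule and chemokine genes were higher in member cells than in Ccl5-negative cells. All 16 genes of a cytotoxic effector list were tested and called higher, and 6 of them, Gzmk, Ccl3, Gzma, Klrg1, Cx3cr1 and Gzmb, entered the test only through the member cells. The other 10 reached the minimum in the Ccl5-negative cells too. Gzmm had a median of 75.6 CPM in member cells (40.2 to 131 over libraries) and 1.95 CPM in Ccl5-negative cells (0.260 to 4.80), a log2 fold change of 4.92 ± 0.11 (SE, 8 libraries). Ifng, the gene of the cytokine interferon-gamma, had a median of 23.7 CPM (11.7 to 204) against 1.48 (0.784 to 15.3), a log2 fold change of 3.98 ± 0.16. The gates did not overlap for Gzmm, as for 1.38% of the genes tested on TMM-scaled values, and overlapped for Ifng, whose highest value came from the PPCA day 4 library. Ccl4, a chemokine gene, was higher by 4.62 ± 0.21 on the log2 scale. Nkg7, a granule membrane protein gene, had a median of 768 CPM in member cells and 481 CPM in Ccl5-negative cells. Prf1, which encodes the pore-forming perforin, had medians of 86.3 and 61.3 CPM, with overlapping ranges.

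Most NK-type receptor genes were near 0 in Ccl5-negative cells. Of 10 listed, 9 were tested, and 7 of these entered only through the member cells, so that their count gives no support to a direction. Klrc1, which encodes a subunit of CD94/NKG2 receptors, had 15 UMIs in all Ccl5-negative cells, a median of 0.240 CPM (0 to 0.611), and a median of 23.5 CPM (10.0 to 46.5) in member cells. Klrc2 and Klre1 had medians of 0.441 and 0.360 CPM in Ccl5-negative cells and 18.8 and 20.8 CPM in member cells. Klrk1 and Klrd1 reached the minimum in both gates and were higher in member cells, Klrk1 by 4.63 ± 0.18 and Klrd1, the CD94 gene, by 0.29 ± 0.04. Klra1, outside the list, was among the genes with the highest changes at 4.74 ± 0.13, from a median of 2.65 CPM (1.37 to 11.2) to 96.7 CPM (38.9 to 177). Reads of Klrc1 and Klrc2, and of Klra genes, can be shared between near-identical copies, so the split among them is uncertain.

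Of 12 memory transcription factors, 8 were higher, Hopx and Zeb2 among them through the member cells alone, and Foxo1 was lower. Hopx was higher by 4.91 ± 0.12, Tbx21 (T-bet) by 2.67 ± 0.18, Eomes by 1.82 ± 0.09 and Id3, an inhibitor of E proteins kept by long-lived memory cells, was among the 8. Eomes had a median of 99.1 CPM in member cells (70.9 to 151) and 27.4 CPM in Ccl5-negative cells (12.4 to 63.2). Homing and adhesion genes were higher in 9 of 11 tested, among them Ccr2, again tested only through the member cells, by 4.48 ± 0.19, Cxcr3 by 2.14 ± 0.10 and Itgb1 by 1.38 ± 0.06, and Itgb7 was lower. CCR2 and CXCR3 are receptors that draw T cells into inflamed tissue. Of 9 cytokine receptor genes tested, 5 were higher, including Il18rap, Il18r1 and Il2rb (1.35 ± 0.05), the chain shared by the IL-2 and IL-15 receptors, and Il6ra was lower.

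Genes of naive and central memory T cells were lower, but by little. Of 12 listed, 8 were lower, with a median of -0.26 on the log2 scale, and Il7r was higher. Lef1 was lower by a log2 fold change of -0.61 ± 0.03, Igfbp4 by -1.05 ± 0.06, Ccr7 by -0.47 ± 0.04 and Dapl1 by -0.45 ± 0.05. Lef1 had a median of 478 CPM in member cells (372 to 602) and 718 CPM in Ccl5-negative cells (636 to 810), which did not overlap. Ccr9, a gut-homing receptor gene outside the list, was lower at -1.24 ± 0.09. In member cells with at least 5 Ccl5 UMIs, a gate added after the data were seen, the same log2 fold changes were -1.43 for Lef1, -3.21 for Igfbp4, -1.08 for Ccr7, -1.43 for Dapl1 and -3.73 for Ccr9. With at least 2 Ccl5 UMIs they were -1.17, -2.43, -0.86, -0.95 and -3.24 in the same order.

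Ctla2a, a cathepsin inhibitor-like gene, was higher by 4.15 ± 0.07 and had a median of 319 CPM in member cells (197 to 586) and 18.6 CPM in Ccl5-negative cells (10.7 to 30.3). Plek, which encodes pleckstrin, was higher by 4.60 ± 0.17 and S100a6 by 3.98 ± 0.14. S100a6 stood at a median of 204 CPM (90.1 to 427) against 12.4 (4.97 to 37.9). Rgcc, Als2cl, Ramp1 and Auts2 were among the genes with the lowest log2 fold changes, at -0.98, -0.98, -0.86 and -0.84. The myeloid genes Cd74 and H2-Aa were higher by 2.87 ± 0.45 and 3.69 ± 0.63, in 6 and 5 of 8 libraries, and both entered the test only through the member cells. Without the cells of either gate that had at least 3 UMIs of Cd74, H2-Aa and H2-Eb1 together, 10 of them member cells, 1532 genes were called, 1503 of them shared with the 1544.

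**Figure D3:**
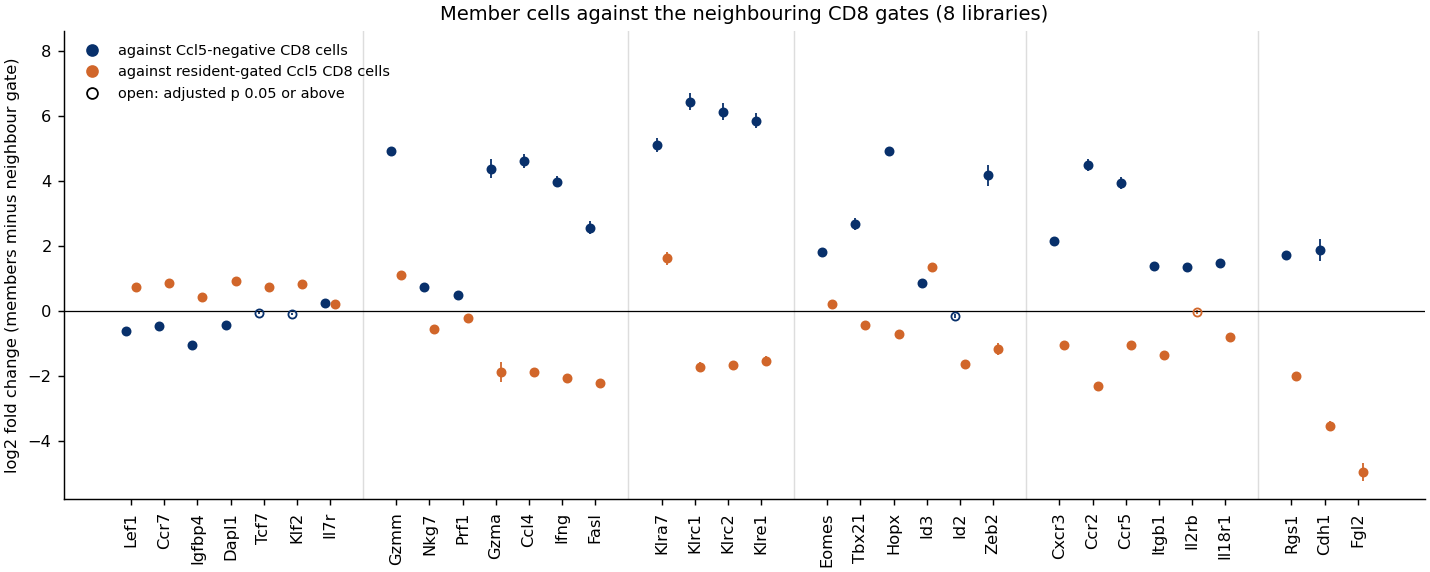
Log2 fold change (member cells minus the neighbouring gate, edgeR, bars are ± SE, 8 libraries) of genes from the lists of naive and central memory, cytotoxic, NK-type receptor, transcription factor, trafficking and residence genes. Blue points are against Ccl5-negative CD8 cells, orange points against resident-gated Ccl5 CD8 cells, and open points had an adjusted p of 0.05 or above. Most granule and receptor genes lie above 0 in blue and below 0 in orange, and Gzmm, Klra7 and Id3 lie above 0 in both.

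The second comparison set member cells against 3674 Ccl5-positive CD8 cells that had at least 1 UMI of Itga1, Itgae or Cxcr6. Here 1243 of 9579 genes were higher in member cells (13%) and 1126 were lower (11.8%), 2369 in all (24.7%), in the same edgeR test. Ccl5 itself, a gated gene, had a median of 3548 CPM in member cells and 7574 CPM in the resident-gated cells. Exactly 1 Ccl5 UMI was found in 18.4% of resident-gated cells (6.33% to 36.1%), so single-molecule cells were fewer there than in the member gate.

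All 12 genes of naive and central memory cells were higher in member cells than in resident-gated cells, with a median log2 fold change of 0.74 against 0.01 over all genes. Klf2, the factor that turns on S1pr1, was higher by 0.81 ± 0.07. Tcf7 and Lef1 were each higher by 0.73, with SEs of 0.05 and 0.06. The difference in Lef1 was 0.75 when only member and resident-gated cells with at least 5 Ccl5 UMIs were compared.

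Of 9 tested residence genes that the gate did not use, 4 were lower in member cells and reached the filter's minimum, here 5.37 CPM in 2 libraries, in the member cells too. Another 4, Fgl2, Cdh1, Litaf and Cd101, were also called lower but entered the test only through the resident-gated cells, so their direction was fixed by the filter. Fgl2, a fibrinogen-like protein gene, had 16 UMIs in all member cells, a median of 0.287 CPM (0 to 2.67), against 38.2 CPM (19.6 to 73.9) in resident-gated cells. Cdh1, which encodes E-cadherin, had a median of 2.77 CPM (0.760 to 6.1001) against 45.8 (27.3 to 65.7), a log2 fold change of -3.55 ± 0.15. Rgs1, a brake on chemokine receptor signalling, was lower by a log2 fold change of -2.01 ± 0.08, and Litaf by -2.96 ± 0.23. Fgl2 and Cdh1 did not overlap between the gates, which held for 2.22% of the genes tested on TMM-scaled values. Cd69, the activation and retention receptor gene often used to define residence, was the exception and was higher in member cells, with medians of 523 and 499 CPM and overlapping ranges.

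Effector genes were mostly lower in member cells than in resident-gated cells. Of 16 cytotoxic genes, 12 were lower, among them Ifng at -2.06 ± 0.08, Ccl4 at -1.87 ± 0.07 and Fasl, the death ligand gene, at -2.22 ± 0.12. Gzmk had a log2 fold change of -1.18 ± 0.07, which was -0.50 among cells with at least 5 Ccl5 UMIs. Gzmm went the other way and was higher in member cells by 1.10 ± 0.13, with a median of 75.6 CPM (40.2 to 131) against 42.0 (8.83 to 83.9). Of 8 NK-type receptor genes tested, 6 were lower, with Klrk1 at -1.96 ± 0.11 and Klrc1 at -1.71 ± 0.13. Klra7 and Klra6 were higher, Klra7 by 1.62 ± 0.20, and Klra1, outside the list, by 1.30 ± 0.12.

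Of 12 transcription factors, 4 were higher and 7 were lower in member cells than in resident-gated cells. Id3 was higher by 1.35 ± 0.09 and Klf3 by 0.83 ± 0.09, with Foxo1 and Eomes also higher, and Id2 was lower by a log2 fold change of -1.63 ± 0.07, Bhlhe40 by -1.64 ± 0.10 and Prdm1 (Blimp-1) by -1.69 ± 0.12, with Hopx, Zeb2, Runx3 and Tbx21 also lower. Id3 had a median of 70.2 CPM in member cells (23.5 to 122) and 30.3 CPM in resident-gated cells (13.5 to 56.1). Id2 had medians of 121 CPM (92.8 to 160) and 430 CPM (340 to 620), which did not overlap.

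Homing genes were lower in 9 of 11 tested, with Ccr2 at -2.31 ± 0.10, Itgb1 at -1.37 ± 0.06 and Cxcr3 at -1.06 ± 0.09, and Cxcr4 was higher. Exhaustion genes outside the gate were lower in 7 of 8, Cd244a only through the resident-gated cells, among them Ctla4 at -1.30 ± 0.08 and Entpd1, which encodes the ectonucleotidase CD39, at -2.25 ± 0.18. Among called genes averaging at least 20 CPM that moved 1 way in all libraries, with T cell receptor variable segments left out, the lowest log2 fold changes belonged to the gamma-chain constant gene Tcrg-C2 (-3.89 ± 0.14) and S100a4 (-3.79 ± 0.13). S100a4 had a median of 41.0 CPM in member cells (18.6 to 107) and 718 CPM in resident-gated cells (481 to 1293). Lgals3, the galectin-3 gene, was lower at -2.93 ± 0.15, Capg at -2.71 ± 0.17 and S100a6 at -2.58 ± 0.10. Among cells with at least 5 Ccl5 UMIs S100a4 was lower at -3.11 and S100a6 at -1.96. Nsg2, Pde2a, Ms4a4c and Cpne4 were among the highest, at 1.23, 1.22, 1.11 and 1.06.

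The third comparison was with 209 Ccl5-positive CD8 cells that had at least 2 of the 5 checkpoint genes, 11 to 87 per library. Of 8697 genes, 539 were higher in member cells (6.2%) and 384 lower (4.42%), 923 in all (10.6%) by edgeR. With DESeq2 size factors in place of TMM the split was 410 higher and 450 lower, so the balance of directions rests on the scaling, and the median log2 fold change over all genes was 0.07.

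Of 7 exhaustion genes tested outside the gate, 3 were lower in member cells and reached the filter's minimum there. The other 4, Cd200, Tnfrsf9, Tox2 and Entpd1, were called lower but entered the test only through the checkpoint-gated cells. Cd200, an immune-inhibitory ligand gene, had a median of 8.43 CPM in member cells (1.59 to 13.2) and 111 CPM in checkpoint-gated cells (40.3 to 342), a log2 fold change of -3.79 ± 0.23. Tnfrsf9, which encodes the costimulator 4-1BB, was lower at -3.08 ± 0.30, Nr4a2, a nuclear receptor induced by antigen, at -2.34 ± 0.18 and Ctla4 at -2.24 ± 0.19. The chemokine gene Xcl1 had a median of 79.1 CPM in member cells (40.3 to 90.4) and 916 CPM (104 to 6842) in checkpoint-gated cells, and the gates did not overlap for Cd200, as for 2.32% of the genes tested on TMM-scaled values. For Xcl1 the gates overlapped on TMM-scaled values. Ikzf2 (Helios) was lower at -2.86 ± 0.18 and Maf at -2.78 ± 0.26.

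Of 12 naive and central memory genes, 10 were higher in member cells than in checkpoint-gated cells, with Lef1 at 1.69 ± 0.12 and Igfbp4 at 2.33 ± 0.21. Ccr9, outside that list, was higher by 2.78 ± 0.42. With at least 2 Ccl5 UMIs per cell Ccr9 was at 1.06 (edgeR adjusted p 0.521), and with at least 5 Igfbp4 was at 0.21 (edgeR adjusted p 0.865). Gzmm and Klra7 were higher here too, Klra7, tested only through the member cells, by 3.44 ± 0.52. Of 16 cytotoxic genes 9 were lower, Gzmb among them only through the checkpoint-gated cells, with Gzmk at -1.72 ± 0.15 and Ccl4 at -1.98 ± 0.11.

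PPCA was compared with vehicle within the member cells, with the library day as a block and the 3 vehicle and 3 PPCA libraries. In edgeR's quasi-likelihood test 10 of 8743 genes were higher under PPCA (0.114%) and 11 were lower (0.126%), 21 in all (0.24%), with 608 below 0.05 before adjustment. DESeq2 called 20 genes, 4 higher and 16 lower, and 9 of them were among the 21. It gave no adjusted p for the other 12, the interferon-induced genes included, and an adjusted p for 607 genes in all. The genes higher under PPCA included 5 interferon-induced genes, and those lower included 5 ribosomal protein genes.

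Interferon-stimulated genes are switched on when type I interferon reaches a cell. Of 14 listed and tested, 4 were higher, 1 of them (Ifit3b) tested only through the PPCA libraries, and 13 had a positive log2 fold change, with a median of 1.35 against 0.01 over all genes. Ifit3, an antiviral protein gene, stood at 19.7, 8.48 and 5.74 CPM in vehicle on days 2, 3 and 4 and at 111, 61.6 and 11.8 CPM in PPCA. The log2 fold change of Ifit3 was 2.30 ± 0.24 with an edgeR adjusted p of 0.000271. Irf7, the factor that amplifies interferon production, stood at 23.4, 26.2 and 17.8 CPM in vehicle and 103, 66.9 and 35.4 CPM in PPCA, a log2 fold change of 1.44 ± 0.20 (edgeR adjusted p 0.00315). For both genes PPCA was above vehicle on each day and lower on each later day, and for Ifit3 the PPCA day 4 value lay inside the vehicle range, and for Irf7 it stayed above it.

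Ifit1 stood at 18.5, 9.64 and 10.3 CPM in vehicle and 75.1, 46.4 and 10.5 CPM in PPCA (log2 fold change 1.55 ± 0.30, edgeR adjusted p 0.0405). Slfn5, an interferon-induced gene outside the list, stood at 25.3, 21.2 and 15.5 CPM and at 92.2, 75.3 and 15.6 CPM (1.32 ± 0.25, edgeR adjusted p 0.0373). On day 4 Ifit1 and Slfn5 differed hardly at all between the treatments. Ifit3b had a log2 fold change of 2.34 ± 0.43 (edgeR adjusted p 0.0326), but it reached the filter's minimum of 5.92 CPM in 2 libraries only under PPCA, so its direction was fixed by the filter. Reads of Ifit3 and Ifit3b can be shared, and their split is uncertain. Isg15 had 1.33 with an edgeR adjusted p of 0.0727. The active library, with no treatment, held Ifit3 at 44.0 CPM and the onset library at 5.34 CPM, so the day 2 and day 3 PPCA values of Ifit3 were above the active library and those of vehicle were below it.

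The promoters of these genes are shown because the genes moved together and 4 of the 5 hold the same interferon-response motif. The motif searched was GAAANNGAAA, on both strands, in the 250 bases before the start of each gene in the RefSeq promoter table (GRCm38.p6), where 978 of 32851 promoters (2.98%) held it. All 5 genes above that passed the threshold had an entry, and Ifit3, Ifit3b, Ifit1 and Slfn5 held a match and Irf7 none. The Ifit3 window (chr19:34583333-34583456, plus strand), in which the first of 2 matches begins at -156 from the start, is also the letters of the Ifit3b window (chr19:34607729-34607852). The Ifit1 window is chr19:34640745-34640853 with 2 matches, and the Slfn5 window chr11:82951907-82951996 with 1, all on the plus strand. Capitals mark the matches, which in the Ifit genes lie on the opposite strand.
Ifit3: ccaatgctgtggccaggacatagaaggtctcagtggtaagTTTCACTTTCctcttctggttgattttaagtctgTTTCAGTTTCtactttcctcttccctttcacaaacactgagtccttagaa
Ifit1: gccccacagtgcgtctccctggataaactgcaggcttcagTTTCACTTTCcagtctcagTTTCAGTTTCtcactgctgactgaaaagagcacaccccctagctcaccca
Slfn5: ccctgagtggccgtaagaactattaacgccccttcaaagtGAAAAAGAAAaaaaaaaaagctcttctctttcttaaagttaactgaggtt
A match is a description of these letters and not a bound site. The Ifit3 and Ifit1 windows carry the same pair of matched decamers.

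S100a6 was also higher under PPCA, at 158, 108 and 226 CPM in vehicle and 280, 252 and 427 CPM in PPCA, a log2 fold change of 0.92 ± 0.12 (edgeR adjusted p 0.00298). PPCA was above vehicle on each of the 3 days. When the gates were set on cells thinned to 2000 UMIs, the log2 fold change of S100a6 was 0.42 with an edgeR adjusted p of 0.561. Rsrp1, Gstp1 and Arhgap5 were higher by 0.82, 0.80 and 0.73 on the log2 scale. Gstp1 has a near-identical copy, and its value is uncertain for that reason.

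Ribosomal protein genes and 1 mitochondrial gene made up 6 of the 11 lower genes. Rps15, a small-subunit protein gene, stood at 2287, 3736 and 2242 CPM in vehicle and 1258, 2194 and 1156 CPM in PPCA, a log2 fold change of -0.93 ± 0.11 (edgeR adjusted p 0.000705). PPCA was below vehicle on each of the 3 days. Rpl5, Rpl13a and Rpl23a had -0.79, -0.72 and -0.66, and the cytochrome oxidase gene mt-Co3 had -0.86. Ribosomal proteins have many processed copies in the genome, so these values are uncertain. The summed share of 79 ribosomal protein genes in member cells was 33.0%, 35.5% and 34.6% in vehicle and 32.4%, 35.3% and 35.7% in PPCA, and did not move with Rps15. The summed mitochondrial share was 2.85%, 4.84% and 2.97% in vehicle and 2.04%, 3.09% and 2.57% in PPCA, lower under PPCA on each day like mt-Co3. The gene Gm42418 alone made up 1.41%, 4.49% and 2.69% in vehicle and 0.996%, 1.09% and 1.82% in PPCA. The part of RNA quality in these calls was not tested.

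Of the other 5 lower genes, 4 (Fscn1, Cd74, H2-Aa and Cd63) had much of their count in 1 cell. These 4 entered the test only through the vehicle libraries and could be called in no other direction. Fscn1, a gene of mature dendritic cells, had 0 UMIs in the PPCA libraries, and 102 of its 116 UMIs came from 1 vehicle day 2 cell. Cd74 and H2-Aa, of antigen-presenting cells, were lower by -3.44 ± 0.50 and -5.13 ± 0.81, with 39.7% and 46.0% of their UMIs in 1 cell each. Myeloid markers summed to 74.5, 2.31 and 89.5 CPM in vehicle members and 1.83, 3.04 and 4.45 CPM in PPCA members. Cd63 had -4.90 with 24 UMIs, 33.3% of them in 1 cell. Fabp5, which encodes a fatty acid binding protein, had -1.58 with 183 UMIs in 97 cells. A single vehicle day 2 cell held 33 of these UMIs, out of 42 in that library. Member cells with at least 3 UMIs of Cd74, H2-Aa and H2-Eb1 together numbered 2, 0 and 4 in vehicle and 0, 2 and 0 in PPCA. Without them 16 genes were called, all among the 21, with 10 higher and 6 lower. The ribosomal protein genes and mt-Co3 alone would fill these 6, so the Fabp5 call may rest on the removed cells.

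Genes of the p53 pathway did not pass the test in member cells. Mdm2, which p53 induces and nutlin-3 blocks at the protein, stood at 42.5, 23.9 and 38.4 CPM in vehicle and 50.7, 38.0 and 46.3 CPM in PPCA. Its log2 fold change was 0.32 ± 0.16 (edgeR adjusted p 0.728), and that of the p53 target Ccng1 was -0.08 ± 0.17 (edgeR adjusted p 0.968). Cdkn1a, the p53-induced cell cycle inhibitor, was too low to be tested, at 1.23, 0.385 and 3.44 CPM in vehicle and 0, 0 and 9.57 CPM in PPCA. None of 12 tested p53 targets of 20 listed, and none of 10 tested cell cycle genes of 20 listed, passed, with medians of -0.04 and -0.27. The proliferation gene Mki67 had 34 UMIs in all member cells, at most 5.54 CPM in a library.

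No gene of the memory lists passed either. Of 16 cytotoxic genes 12 had positive log2 fold changes, with a median of 0.20, and of 12 naive and central memory genes 3 were positive, with a median of -0.06. Gzmk had 0.60 ± 0.16 with an edgeR adjusted p of 0.239, and PPCA was above vehicle on each of the 3 days. Klrk1 had 0.38 ± 0.31 (edgeR adjusted p 0.850), with daily log2 ratios of -0.48, -0.32 and 1.88. Early T cell receptor response genes, 12 of 12 tested, had a median of -0.52 and 1 positive value, and none passed.

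**Figure D4:**
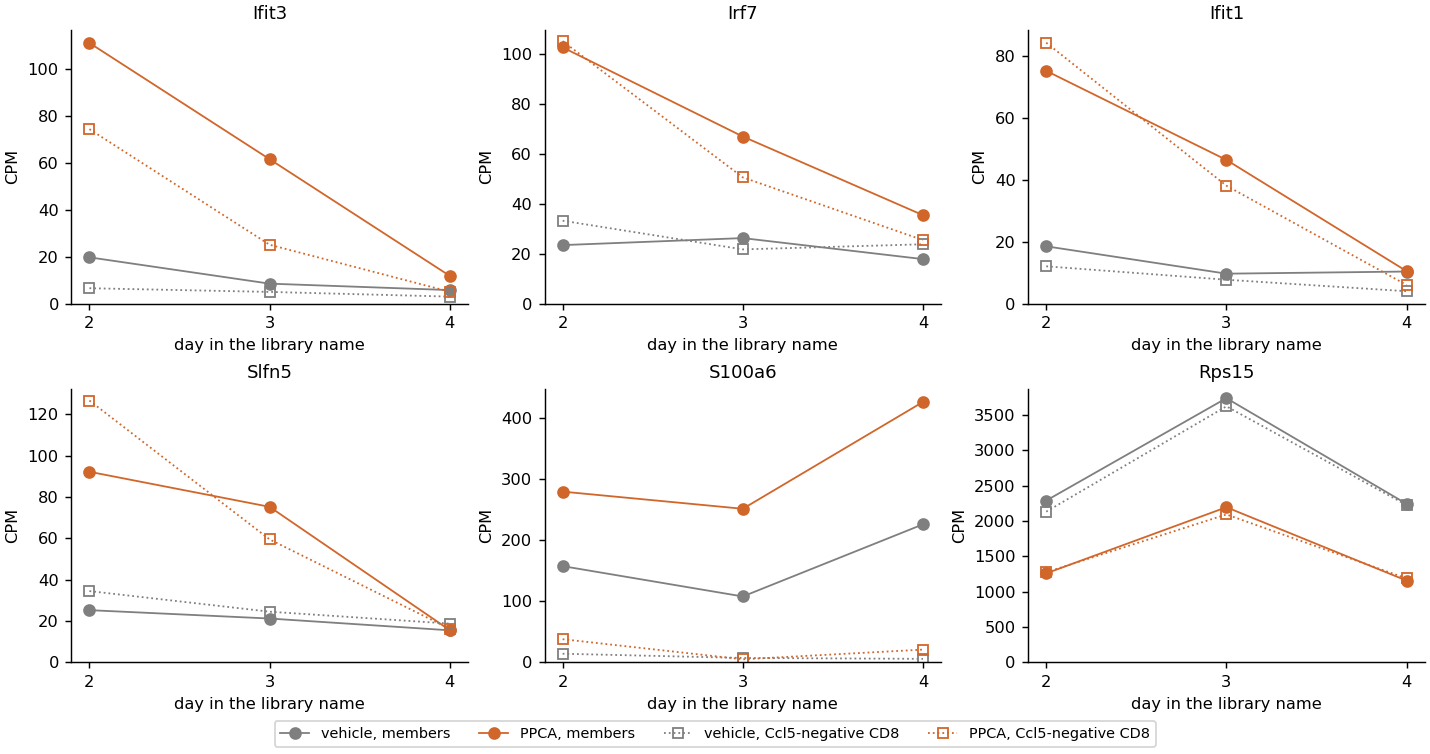
Level (CPM) of 6 genes by the day in the library name, 1 library per point, for member cells (filled, solid) and Ccl5-negative CD8 cells (open, dotted) under vehicle (grey) and PPCA (orange). PPCA lies above vehicle for the interferon genes on days 2 and 3 and nearer to it on day 4. For Rps15 both kinds of cell run almost together, and S100a6 is higher in member cells than in Ccl5-negative cells.

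The PPCA effect in member cells was then tested against the effect in Ccl5-negative CD8 cells of the same libraries. No gene of 10363 passed in either direction in edgeR (0 higher, 0 lower, 0%), DESeq2 gave 0, with 452 genes below 0.05 before adjustment in edgeR and 38 in DESeq2. Ifit3 stood at 6.53, 4.95 and 2.95 CPM in the Ccl5-negative cells under vehicle and at 74.4, 25.1 and 5.04 CPM under PPCA, and the difference of the effects was -0.18 ± 0.28 (edgeR adjusted p 1). Irf7 stood at 33.2, 21.7 and 23.7 CPM and at 105, 50.5 and 25.4 CPM, a difference of 0.40 ± 0.18 (unadjusted p 0.0348 and adjusted p 1 in edgeR). Rps15 stood at 2131, 3621 and 2224 CPM and at 1274, 2092 and 1187 CPM, a difference of -0.04 ± 0.06. None of the PPCA changes was shown to be particular to the member cells, and a p that misses the threshold does not show that the effects were equal.

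Limits apply to these 21 calls. Without the day 3 pair 0 genes passed in edgeR (328 at an unadjusted p under 0.05), without the day 2 pair 49 and without the day 4 pair 157. In the day 3 pair both libraries had Y-linked transcripts, whereas on day 2 the PPCA library and on day 4 the vehicle library had Xist instead. With Xist as a factor, which left 1 residual degree of freedom, 128 genes passed, all 21 among them. Ifit1 lost its call without computed doublets (edgeR adjusted p 0.114), and Gzmk gained one without the day 2 pair (edgeR adjusted p 0.0465), with no low-count filter (0.0286) and with Xist as a factor (0.00313).

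The share of member cells among CD8-gated T cells was counted after thinning every cell to 2000 UMIs. It was 14.1%, 8.72% and 7.76% in vehicle on days 2, 3 and 4 and 13.2%, 6.85% and 18.2% in PPCA, with exact 95% intervals of 12.4% to 15.8%, 7.82% to 9.70%, 6.76% to 8.86%, 11.9% to 14.5%, 5.95% to 7.84% and 17.0% to 19.4%. PPCA minus vehicle was -0.917, -1.88 and 10.4 percentage points. The mean difference of 2.53 points (SD of the differences 6.82, n = 3 pairs) had an exact two-sided sign-flip p of 1, where the smallest p that 3 pairs allow is 0.25. Without day 4 the mean was -1.40 points. Unthinned shares were 13.2%, 9.28% and 8.64% in vehicle and 11.5%, 7.03% and 17.0% in PPCA.

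The share of CD8-gated cells that were member cells with at least 5 Ccl5 UMIs, again after thinning, was 7.52%, 4.33% and 4.23% in vehicle and 6.98%, 3.74% and 12.3% in PPCA. The active and onset libraries had 2.57% and 4.74% by this count, and 6.61% (5.71% to 7.61%) and 9.61% (8.40% to 10.9%) by the gate itself. The PPCA day 4 library stood above the others by either count. Thinning also removes residence and checkpoint UMIs, so it can bring cells into the gate. Members with at least 5 Ccl5 UMIs rose from 69 unthinned to 103 thinned in onset and from 127 to 182 in PPCA day 2. They fell in active (74 to 70), vehicle day 3 (157 to 155) and PPCA day 4 (533 to 515). Unthinned, onset had a share of 3.09% and active one of 2.55%, with overlapping exact 95% intervals. Vehicle day 2 then had 6.89% and PPCA day 2 had 4.66%.

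**Figure D5:**
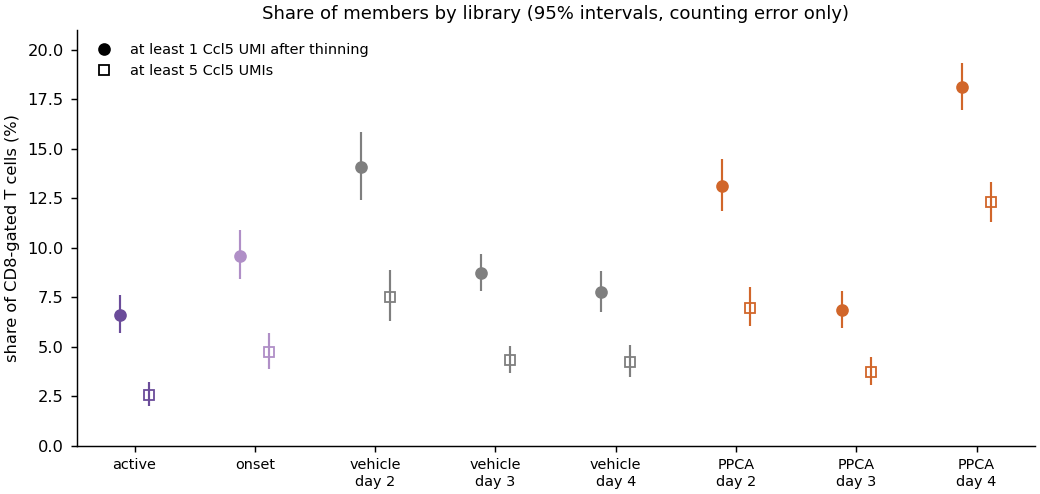
Share of CD8-gated T cells (percent, exact 95% binomial intervals, counting error only) in the member gate of each library after thinning to 2000 UMIs. Circles are cells with at least 1 Ccl5 UMI and squares those with at least 5. The PPCA day 4 library, at 18.2% and 12.3%, is the highest, and on days 2 and 3 the intervals of vehicle and PPCA overlap.

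Active and onset disease had 1 library each, so their difference has no replicate check and no test. Of 2778 genes that reached 50 CPM in one of them, 16 were at least 2-fold higher in active (0.576%) and 30 in onset (1.08%). Of 7493 genes that reached 10 CPM, the floor for the lists, 2.63% were at least 2-fold higher in active and 2.4% in onset. Of 14 interferon genes 13 were higher in active and 8 of them at least 2-fold, including Isg15 at 116 CPM in active (Poisson 95% interval 101 to 133) and 34.3 in onset (25.0 to 45.9). Ifit1 stood at 59.4 (48.9 to 71.5) and 11.4 CPM (6.40 to 18.9). Gzmm stood at 106 (91.9 to 122) and 41.9 CPM (31.6 to 54.6), and Klra1 at 131 (115 to 148) and 38.9 CPM (29.0 to 51.1).

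Onset was higher for several effector cytokine genes and some early activation genes. Ifng stood at 11.7 CPM in active (7.31 to 17.7) and 70.2 in onset (56.6 to 86.0), Ccl4 at 23.9 (17.4 to 31.9) and 125 (107 to 146), and Fos at 69.5 (58.1 to 82.4) and 360 CPM (328 to 394). Of 11 early T cell receptor response genes with at least 10 CPM in either library, 5 were at least 2-fold higher in onset and 1 in active. That 1 was Egr3, at 26.5 CPM in active and 10.7 in onset, and Egr1 stood at 68.4 and 64.8 CPM. Of 12 cytotoxic genes with at least 10 CPM in either library, 6 were at least 2-fold higher in onset and Gzmm was at least 2-fold higher in active. Of 8 heat shock and stress genes with at least 10 CPM, 3 were at least 2-fold higher in onset and 0 in active. Hsph1 among them stood at 80.1 CPM in active and 250 in onset. No naive or central memory gene differed 2-fold. Member cells with 50 or more Ccl5 UMIs were 6.79% in active and 15.4% in onset, and those with 1 UMI 52.5% and 57.0%. The part of this mix in the differences was not tested. Among member cells with at least 5 Ccl5 UMIs 194 genes passed the same fold in place of 46, and the intervals cover counting error only.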

How the data were processed

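Raw UMI counts per gene and cell of 8 libraries were deposited by the authors as filtered matrices of 32285 features (10x 3′ version 2 chemistry per the labels). The file headers name Cell Ranger 6.0.0, whereas the submitters' processing notes name Cell Ranger 6.1.2 and Seurat. For the genome build, nothing is given in the sources used here. The authors' deposited cluster table gave log2 fold changes, adjusted p-values and detection fractions.

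Member cells and gene lists were chosen with earlier results of these data known. Counts were summed per library and gate. Tests used edgeR 4.0.16 in R 4.3.3 (TMM, filterByExpr, quasi-likelihood, Benjamini-Hochberg at 0.05), with DESeq2 1.42.0 and limma 3.58.1 as alternatives. Printed CPM are UMIs per 1000000 of the gate's sum, without TMM. Doublets were marked with scanpy 1.11.5 and kept. Library days pair vehicle with PPCA, as the labels give them, and deviations correlated by 0.219, 0.273 and 0.483 within days. On simulated counts the PPCA test (8588 genes) recovered 70.1% of 194 genes changed 2-fold with 7 false calls, and the Ccl5-negative comparison (10324 genes) recovered 92.4% of 198 with 16. The simulated counts were drawn from the dispersions that edgeR fitted, with no sex difference within days and no single-cell outlier added. They therefore do not measure the error of the real calls. Named genes were Ccl5, Gzmk, Klrk1, the gated genes, up to 5 per list by adjusted p, other list members as values, and the 10 highest and lowest called changes at 20 CPM or more that moved 1 way in all libraries or days (50 CPM in active against onset). The Fscn1, Cd63 and Fabp5 calls and the Ccl5 classes of Gzmk, Hopx and others were described after their values were seen. T cell receptor segments were not ranked. A few genes are not reported here, and counts over lists and over all genes include them.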

Additional observations from a re-analysis of the deposited data

Results flagged for a closer look

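The share of member cells among CD8-gated T cells differed in direction between days. PPCA minus vehicle was 10.39 percentage points on day 4 and was negative on days 2 and 3, at -0.917 and -1.88 points. Each day has 1 library per treatment, and the difference between days was not tested. The day 4 PPCA library had Y-linked transcripts and the day 4 vehicle library Xist, and their median depths in member cells were 4845 and 6398 UMIs. These shares were counted after thinning every cell to 2000 UMIs, and the day 4 difference was 11.2 points at 1500 UMIs and 8.41 points without thinning. The part of sex in the share was not tested.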

How the results depend on the processing

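Alternatives moved counts of calls more than directions. For PPCA against vehicle, 21 calls became 20 in DESeq2 (9 shared), 104 with no low-count filter, 11 with at least 2 Ccl5 UMIs, 32 with limma-voom and 128 with Xist as a factor (1 residual degree of freedom). Leaving out 1 day pair gave 0 to 157. Without the replicate block, the pairing of days, 0 genes passed (226 at an unadjusted p under 0.05 in edgeR). For the difference of PPCA effects 9 passed with no low-count filter, and leaving out 1 day pair gave 0 to 15. Against Ccl5-negative cells the 1544 calls became 935 in DESeq2, 2645 with gates on thinned cells, 369 without the replicate block and 599 in the 4 Xist libraries. Leaving out 1 library gave 1215 to 1463 there, 1997 to 2346 against resident-gated cells and 752 to 862 against checkpoint-gated cells. Against resident-gated cells 2369 became 1310 in DESeq2 and 760 without the block. Against checkpoint-gated cells 923 became 562 at 2 Ccl5 UMIs, 467 at 5, 519 without the block and 518 in the Xist libraries. Active against onset went from 46 genes to 194 at 5 Ccl5 UMIs. The share difference of 2.53 points ranged from -1.40 without day 4 to 4.74 without day 3. The alternatives at 5 Ccl5 UMIs and without antigen-presenting cells were chosen after seeing the data.

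Of 315 values of named genes under PPCA, 234 kept direction and side of the threshold and 45 lost the call. Log2 fold changes reversed for Ccng1 (0.10 with thinned gates, 0.17 and 0.18 at 2 and 5 Ccl5 UMIs, -0.18 to 0.084 leaving out 1 day pair) and Klrk1 (-0.42 to 0.85 leaving out 1 day pair), neither called. In the difference of effects, with no call, values reversed for Ifit3 (0.024 without the replicate block, -0.60 to 0.43 leaving out 1 day pair), Ifit1 (0.23 thinned), Irf7 (-0.013 thinned), Rps15 (0.011 thinned), S100a6 (0.064 in DESeq2, 0.12 thinned, -0.77 to 0.20 leaving out 1 day pair) and Gzmk (-0.13 and -0.24 at 2 and 5 Ccl5 UMIs, -0.021 without the block, -0.35 to 0.93 leaving out 1 day pair). Against resident-gated cells Il18rap (0.11 thinned, 0.19 at 5 UMIs) reversed, and against checkpoint-gated cells Hopx (0.48 thinned, 0.059 at 5 UMIs), Isg15 (0.48 thinned), Fosb (0.16 thinned) and Junb (0.16 thinned). No named value reversed against Ccl5-negative cells. The cause was not tested. Depth limits low genes: Cdkn1a and Mki67 had too few UMIs to test under PPCA.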

Other observations

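Survival and cell cycle genes, which the comparisons above did not describe, also differed between gates. Against Ccl5-negative CD8 cells, 4 of 8 genes of the BCL2 family were higher in edgeR, where 8.73% of all genes were, with Bcl2 by 0.29 ± 0.03, Bcl2a1b by 1.00 ± 0.07, Bcl2a1d by 2.27 ± 0.21 and Bcl2l1 by 0.68 ± 0.16 on the log2 scale. Bcl2, which protects resting lymphocytes, had a median of 307 CPM in member cells (253 to 352) and 247 CPM in Ccl5-negative cells (205 to 311). Against resident-gated cells none of the 8 was higher and Bcl2a1b and Bcl2a1d were lower, where 11.8% of all genes were. Against checkpoint-gated cells Bcl2 was higher by 0.96 ± 0.13, and Bcl2a1b and Bcl2a1d, near-identical copies whose split is uncertain, were lower at -1.67 ± 0.13 and -2.44 ± 0.23.

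Of 12 cell cycle genes tested, 6 were higher than in Ccl5-negative cells, including Hmgb2 by 0.54 ± 0.04 and Top2a by 1.07 ± 0.21, and Tubb5 was lower, beside 8.73% and 6% of all genes. Mki67, 1 of the 6, entered the test only through the member cells. Against resident-gated cells 5 of 13 were lower, beside 11.8% of all genes, with Mki67 at -2.19 ± 0.31, and Tubb5 was higher. Mki67 and Cdk1 entered only through the resident-gated cells. Of 6 genes of unconventional T cells tested, 3 were higher than in Ccl5-negative cells and Trdc, the delta-chain constant gene, was lower at -1.20 ± 0.22. Against resident-gated cells 3 of 6 were lower. In each comparison Tcrg-C1 entered only through the gate where it was higher. The same shares of all genes apply. Cd7 was higher by 0.75 ± 0.06 than in Ccl5-negative cells and lower at -0.76 ± 0.06 against resident-gated cells.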
